A study of Mus musculus with 6 samples.

Results

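The 7 GABA-A receptor subunit genes *Gabra2*, *Gabra3*, *Gabra6*, *Gabrb1*, *Gabrb2*, *Gabrg1* and *Gabrd* were taken by name from the 32286 genes listed in the single nuclei RNA sequencing of the mouse cerebellum. Whole cerebella were taken from 3 mice of the *Pcp2-ATXN1[82Q]* line, a model of spinocerebellar ataxia type 1 (SCA1), and from 3 wild-type (WT) mice, each giving 1 library. The SCA1 mice bore a transgene of human *ATXN1*, its CAG repeat expanded, under control of the *Pcp2* promoter, so that within the cerebellum the transgene is driven in Purkinje cells (PCs), while their WT littermates, given as strain C57Bl6, lacked it, and all 6 mice were 12 weeks old. Every captured transcript bears a unique molecular identifier (UMI), and each nucleus has a cell type label that the authors assigned with SingleR. That label was used alone here, while the study's methods also required its cell types to share a Seurat cluster. UMIs of all nuclei of a label were summed per mouse, and levels are given below as UMIs per 1000000 UMIs of that sum, the sum being scaled by a TMM factor computed among the mice of the label (CPM), and as mean ± SD over n = 6 mice unless stated otherwise.

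GABA-A receptors are chloride channels built from several subunits around a pore, and most combine α and β subunits with a γ or δ subunit. Some receptors cluster at synapses, while those of cerebellar granule neurons that hold α6 (*Gabra6*) and δ (*Gabrd*) lie outside synapses and carry a steady current that ambient GABA evokes. PCs receive GABA from the basket and stellate cells of the molecular layer, and granule neurons from Golgi cells. Bergmann glia (BG), which wrap PC synapses, also respond to GABA.

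Depth ranged from 18916647 to 98366627 UMIs a library and nuclei from 3354 to 10897, with 45473 nuclei in all, and WT mouse 2 was the shallowest, with a median of 2246.5 UMIs per nucleus. Libraries shared at most 44 cell barcodes by pairs. There were 13 labels with at least 10 nuclei in every mouse. Granule neurons were the most frequent, with 37532 nuclei, against 292 PCs, 1243 BG, 1014 velate astrocytes (VA) and 1384 oligodendrocytes (OL). The interneuron labels, named after marker genes, were *Pvalb-Nefh* with 1224 nuclei, *Pvalb-Rab3b* with 458, *Pvalb-Cadm1* with 289, *Pvalb-Chrm2* with 263 and *Lgi2* with 240, and 3 further labels were *Slc17a6 Nrgn* neurons, *Slc17a6 Sln* neurons and *Dcn Nnat* cells. Human *ATXN1* gave 12, 15 and 19 UMIs in PCs of SCA1 mice 1, 2 and 3 and 0 in PCs of the 3 WT mice, but it also gave 14 to 28 UMIs in the granule neurons of the WT mice.

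*Calb1*, a calcium-binding protein of PCs, had its highest level in the PC label, at 842 CPM, *Gdf10* in BG at 120, the water channel *Aqp4* in VA at 1150 and the myelin gene *Mog* in OL at 731. *Sorcs3*, a marker of 1 kind of molecular layer interneuron, was highest in the *Pvalb-Nefh* label at 2070 CPM, and *Nxph1*, a marker of the other kind, in the *Pvalb-Cadm1* label at 4680. Less clear were *Pvalb-Rab3b*, since 368 of its 458 nuclei lay in clusters made mostly of *Pvalb-Nefh* nuclei, and *Pvalb-Chrm2*, of which 114 of 263 nuclei lay in clusters made mostly of *Slc17a6 Nrgn* neurons and 84 in clusters of *Pvalb-Cadm1*. Of the 240 *Lgi2* nuclei, 114 also lay in *Slc17a6 Nrgn* clusters.

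Most of the 7 genes lie beside other subunit genes (GENCODE annotation of GRCm38, the build to which the reads were aligned). On chromosome 5, *Gabrg1* (70751047 to 70842617, minus strand), *Gabra2* (70957597 to 71095849, minus strand), *Gabra4* and *Gabrb1* (71658113 to 72149037, plus strand) follow each other, and *Gabra4* and *Gabrb1* overlap by 196 bases on opposite strands. *Gabra6* (42306437 to 42321072, minus strand) and *Gabrb2* (42419757 to 42629028, plus strand) lie on chromosome 11, 98.7 kb apart. *Gabra3* (72432681 to 72656848, minus strand) lies on chromosome X between *Gabre* and *Gabrq*, and *Gabrd* (155384980 to 155398112, minus strand) on chromosome 4. Genes spanned 13.1 kb (*Gabrd*) to 491 kb (*Gabrb1*), and because reads on introns were counted, levels of different genes are not compared.

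Promoters are shown for *Gabra6*, which gives the granule neuron label its name, and for *Gabra2* and *Gabrg1*, neighbours whose levels moved alike across the labels. RefSeq's promoter table for GRCm38.p6 held an entry for 6 of the 7 genes, all but *Gabrd*. Each line gives the 250 bases before the start of the gene, read 5′ to 3′ on the gene's own strand, the minus strand in each case. The windows are chr11:42321073-42321322 for *Gabra6*, chr5:71095850-71096099 for *Gabra2* and chr5:70842618-70842867 for *Gabrg1*. Capitals mark the letters TTGGC or, on the other strand, GCCAA, the half-site that nuclear factor I (NFI) proteins, transcription factors of maturing granule neurons and glia, are known to prefer.
Gabra6: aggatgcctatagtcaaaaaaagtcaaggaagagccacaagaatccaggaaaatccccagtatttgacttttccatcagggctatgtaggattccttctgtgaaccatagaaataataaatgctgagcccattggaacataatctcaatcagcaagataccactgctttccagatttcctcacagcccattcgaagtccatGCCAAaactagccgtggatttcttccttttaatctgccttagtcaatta
Gabra2: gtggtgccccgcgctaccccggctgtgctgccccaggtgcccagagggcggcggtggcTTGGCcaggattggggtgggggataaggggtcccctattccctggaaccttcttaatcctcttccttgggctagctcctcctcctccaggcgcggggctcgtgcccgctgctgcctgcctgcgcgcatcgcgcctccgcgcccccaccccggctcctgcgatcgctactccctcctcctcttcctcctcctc
Gabrg1: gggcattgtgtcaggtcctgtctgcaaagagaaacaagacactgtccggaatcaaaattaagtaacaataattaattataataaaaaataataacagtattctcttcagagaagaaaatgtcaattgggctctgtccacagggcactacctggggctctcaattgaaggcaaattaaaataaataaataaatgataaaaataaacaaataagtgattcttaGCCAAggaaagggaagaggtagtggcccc
The letters were found once in each window, 49 bases before the start of *Gabra6*, 192 before that of *Gabra2* and 29 before that of *Gabrg1*. They stood on either strand in 41.5% of all 32851 promoter windows of this length, so that a match in any 1 window is common, and a match is not a measured binding site. Of the windows not printed, 1 of *Gabrb1* and 1 of *Gabrb2* held the letters. The other windows of these genes and those of *Gabra3* did not. Other motifs were searched too and are not marked.

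Across labels, *Gabra2*, *Gabrb1* and *Gabrg1*, the neighbours on chromosome 5, were highest in astroglia. Levels across labels are described and not tested, since SingleR had assigned the labels from the same counts. *Gabrb1*, which encodes the β1 subunit, was at 4890 ± 1940 CPM in BG and 4730 ± 1690 CPM in VA. The BG of SCA1 mice 1, 2 and 3 had *Gabrb1* at 3260, 4600 and 7100 CPM and those of WT mice 1, 2 and 3 at 2730, 4320 and 7350 CPM. The genotypes thus overlapped, mouse 1 was lowest and mouse 3 highest in both, and the order of BG and VA differed between mice, with BG higher in 3 of 6. The next label, *Slc17a6 Nrgn* neurons, stood at 631 ± 118 CPM, below the lowest BG and VA values, and OL at 77.5 ± 34.5 CPM. The mean level in BG was 40.9 times that in granule neurons, with 27.7 to 62.9 times in single mice.

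*Gabra2*, the α2 subunit, had 794 ± 296 CPM in BG and 803 ± 295 CPM in VA, which overlapped. Its values in BG were 467, 755 and 989 CPM in SCA1 mice 1, 2 and 3 and 424, 993 and 1130 CPM in WT mice 1, 2 and 3, again lowest in mouse 1 of both genotypes. *Slc17a6 Nrgn* neurons followed at 222 ± 36.9 CPM and *Lgi2* interneurons at 181 ± 74.4 CPM. Among the molecular layer labels, *Gabra2* was at 39.6 ± 8.70 CPM in *Pvalb-Nefh* and 11.9 ± 7.85 CPM in *Pvalb-Cadm1* interneurons, and was higher in the first in all 6 mice. PCs had the lowest mean, 4.02 ± 4.50 CPM, and OL had 14.2 ± 9.27 CPM.

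*Gabrg1*, the γ1 subunit, reached 87.1 ± 17.7 CPM in BG, with 68.3, 104 and 96.1 CPM in SCA1 mice and 62.0, 90.8 and 102 CPM in WT mice 1, 2 and 3. VA had 70.1 ± 7.96 CPM, *Lgi2* interneurons 35.4 ± 17.3 and *Slc17a6 Nrgn* neurons 29.9 ± 14.9 CPM, while PCs had 0.849 ± 1.01 CPM from 13 UMIs in all. The genotypes overlapped in BG. From BG to VA, *Lgi2* and *Slc17a6 Nrgn*, each label overlapped with the next between mice. PCs, at most at 2.75 CPM, lay below the lowest *Slc17a6 Nrgn* value, 3.38 CPM.

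**Figure D1:**
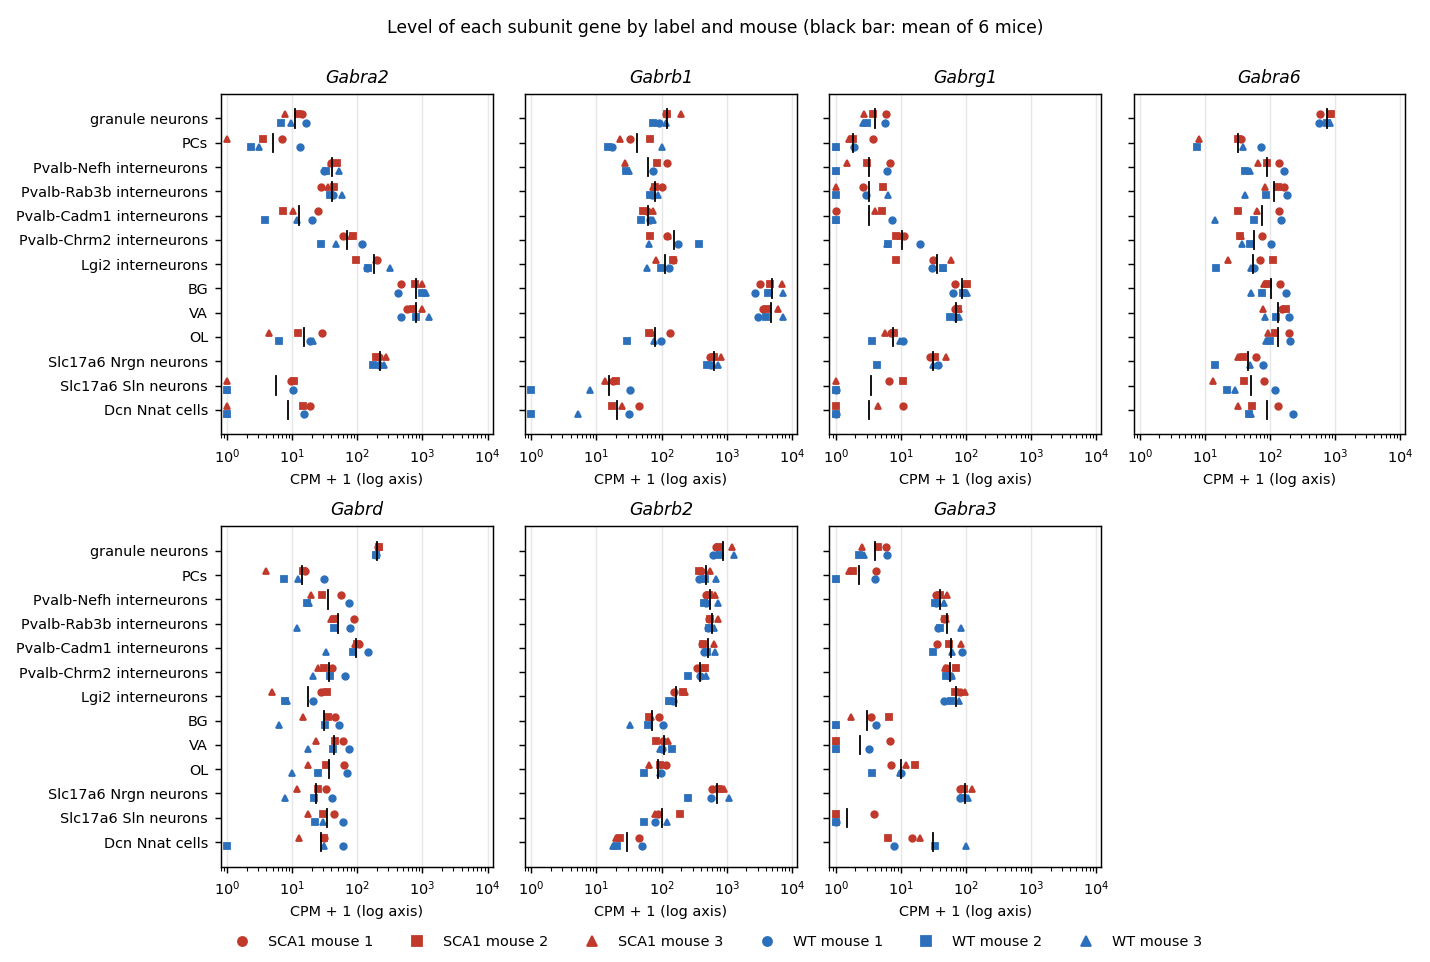
Level of each of the 7 genes (x axis, CPM + 1 on a log axis) in the 13 labels (y axis), with 1 point per mouse, red for SCA1 and blue for WT, and a black bar at the mean of 6 mice. *Gabra2*, *Gabrb1* and *Gabrg1* peak in BG and VA, *Gabra6* and *Gabrd* in granule neurons, and the genotypes lie on top of each other in most labels.

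The share of nuclei with a UMI gave the same picture. To remove differences in depth, nuclei were thinned to 3000 UMIs, and shallower ones were left out. Those left out included 5721 granule nuclei and were uneven between mice. Mouse 1 of either genotype, with at least 3890 UMIs in every nucleus, lost no nuclei. WT mouse 2, with a median of 2246.5 UMIs, lost most of its nuclei. *Gabrb1* had a UMI in 98.8% ± 1.35 of BG and 98.3% ± 1.6 of VA nuclei, but in 9.46% of OL and 8.0% of PC nuclei. Its share in *Slc17a6 Nrgn* neurons was 71.3%. *Gabra2* was seen in 75.9% of BG, 71.0% of VA, 38.8% of *Slc17a6 Nrgn* neurons and 0.697% of PCs, and *Gabrg1* in 20.7% of BG and 17.3% of VA. *Gabra2* and *Gabrb1* UMIs were found together in 75.6% ± 8.75 of BG nuclei, and all of *Gabra2*, *Gabrb1* and *Gabrg1* in 16.0% ± 3.05. The same 2 shares were 70.9% and 11.9% in VA and 0.603% and 0.0337% in granule neurons. For *Slc17a6 Nrgn* neurons they were 27.5% and 3.34%, and for *Lgi2* interneurons 6.91% and 2.93%. Before thinning, PC nuclei had a median depth of 36466.5 UMIs, OL nuclei one of 6453, VA nuclei one of 7411.5 and BG nuclei one of 8341.

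**Figure D2:**
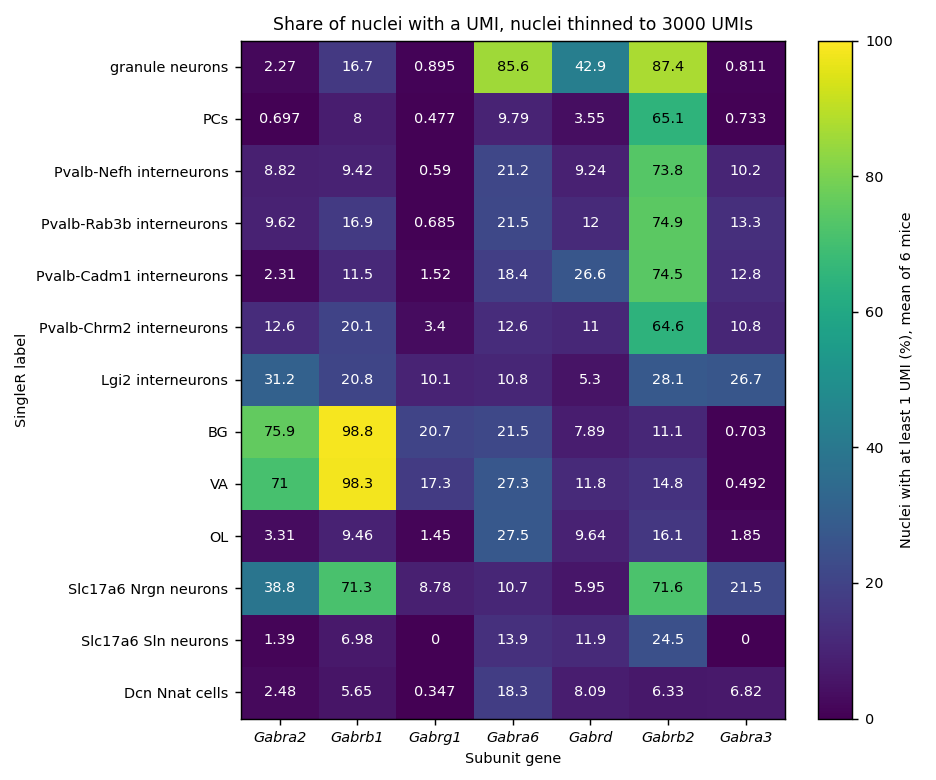
Share of nuclei with at least 1 UMI of each gene (color and printed value, in %, mean of 6 mice) by label, after every nucleus was thinned to 3000 UMIs. The shares of *Gabrb1* reach 98.8% in BG and 98.3% in VA, and those of *Gabra6* and *Gabrb2* 85.6% and 87.4% in granule neurons.

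*Gabra4* (α4), which lies between *Gabra2* and *Gabrb1*, was also highest in BG, at 374 ± 129 CPM, followed by VA at 180 ± 44.0 CPM, while granule neurons had 9.77 CPM. Across the 13 label means, Pearson's r of log2(CPM + 1) was 0.93 between *Gabra2* and *Gabrg1*, 0.90 between *Gabra2* and *Gabrb1* and 0.88 between *Gabrb1* and *Gabrg1*. These are descriptions over 13 labels that share the same 6 libraries. Among the 11201 genes that reached 20 CPM in some label, the pattern of *Gabra2* was most like those of *Pou3f2* (r = 0.938), *Gabrg1* (0.932) and *Sesn3* (0.913). The nearest to *Gabrb1* were *Gm9750* (0.943), *Cfap97d2* (0.937) and *Irx5* (0.934), and the nearest to *Gabrg1* were *Pou3f2* (0.946), *Gabra2* (0.932) and *Gm26862* (0.912).

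*Gabra6* and *Gabrd* were highest in granule neurons. *Gabra6*, which encodes the α6 subunit, was at 585, 869 and 836 CPM in granule neurons of SCA1 mice 1, 2 and 3 and at 568, 742 and 844 CPM in those of WT mice 1, 2 and 3, on average 741 ± 135 CPM. Every one of these values lay above the highest value of *Gabra6* in VA, the next label, which had 133 ± 48.5 CPM. The lowest mean, 31.4 ± 23.6 CPM, was that of PCs. A UMI of *Gabra6* was present in 85.6% ± 3.40 of thinned granule nuclei, 27.3% of VA and 9.79% of PC nuclei.

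Outside granule neurons, *Gabra6* stood near some other RNAs of granule neurons in most labels. In VA its level was 18.1% of that in granule neurons of the same mouse (median of 6 mice), against 20.7% for *Etv1*, 19.9% for *Fat2* and 27.2% for the glutamate transporter *Slc17a7*, all granule neuron markers. In PCs the same values were 4.04% for *Gabra6*, 5.28% for *Etv1*, 4.23% for *Fat2* and 5.22% for *Slc17a7*. The further granule neuron markers *Cbln3* and *Neurod1* stood higher, at 43.8% and 28.3% in VA and at 9.27% and 8.04% in PCs. *Etv1* UMIs per *Gabra6* UMI, pooled over mice, numbered 1.02 in granule neurons and 0.910 to 1.37 in the other 12 labels. The ratio was above that of granule neurons in every mouse in BG (1.24 to 2.76 in single mice), OL (1.18 to 2.58), VA (0.933 to 1.47) and PCs (0.973 to 1.67). *Fat2* UMIs per *Gabra6* UMI numbered 0.601 in granule neurons and 0.39 to 0.60 in 11 of the other labels, but 2.55 (1.58 to 12.3 in single mice) in *Slc17a6 Sln* neurons. These shares were largest in mouse 1 of both genotypes, as in OL, where *Gabra6* was at 191 CPM in SCA1 mouse 1 and 203 CPM in WT mouse 1, against 84.6 to 117 CPM in the other 4 mice. *Etv1* was also the gene whose levels were most like those of *Gabra6* (r = 0.981), followed by *Car4* (0.969) and *Gm42912* (0.963).

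*Gabrd*, the δ subunit, had 202 ± 12.0 CPM in granule neurons, the smallest spread between mice of the 7 genes there relative to its mean. *Pvalb-Cadm1* interneurons came next at 92.8 ± 36.1 CPM, with 104, 98.9 and 92.1 CPM in SCA1 mice 1, 2 and 3 and 144, 85.6 and 32.0 CPM in WT mice 1, 2 and 3. All of these lay below every granule neuron value. The level in *Pvalb-Cadm1* was 2.67 times that in *Pvalb-Nefh* interneurons, with 1.87 to 5.33 times in single mice, and *Gabrd* was seen in 26.6% of thinned *Pvalb-Cadm1* nuclei, 9.24% of *Pvalb-Nefh* and 3.55% of PC nuclei.

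Relative to granule neurons, *Gabra6* in *Pvalb-Cadm1* interneurons stood near the markers *Etv1* and *Fat2*, while *Gabrd* stood well above these 2. *Gabrd* UMIs per *Gabra6* UMI, pooled over mice, numbered 0.299 in granule neurons (0.228 to 0.354 in single mice). They numbered 0.303 in BG (0.108 to 0.41), 0.300 in OL (0.104 to 0.34), 0.298 in *Dcn Nnat* cells (0 to 0.583), 0.35 in VA and 0.342 in *Lgi2* interneurons. In *Pvalb-Cadm1* interneurons the ratio was 1.17, with 0.764 to 3.20 in single mice. *Gabrd* stood at 45.4% of the granule neuron level there, while *Gabra6*, *Etv1* and *Fat2* stood at 7.39%, 8.17% and 5.70%. The granule neuron markers *Cbln3* and *Neurod1* stood at 20.6% and 27.7%. *Gabrd* was below *Neurod1* in WT mouse 3 (16.7% against 28.6%). It was barely above it in SCA1 mouse 1 (50.3% against 50.1%) and further above it in each of the remaining mice. *Pvalb-Chrm2* interneurons, which share clusters with *Pvalb-Cadm1*, had a ratio of 0.599 (0.534 to 0.889), also above the value of granule neurons in all 6 mice. The same held, at lower or similar ratios, for *Slc17a6 Sln* neurons (0.612, from 41 *Gabrd* UMIs), *Pvalb-Rab3b* (0.453) and *Pvalb-Nefh* interneurons (0.411) and PCs (0.422), while *Slc17a6 Nrgn* neurons had 0.509 with 0.14 to 1.5 in single mice. *Pvalb-Cadm1* interneurons had the highest ratio of the 13 labels. Genes whose levels were most like those of *Gabrd* included *Ppm1d* (r = 0.920) and *Shisa8* (0.897).

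**Figure D3:**
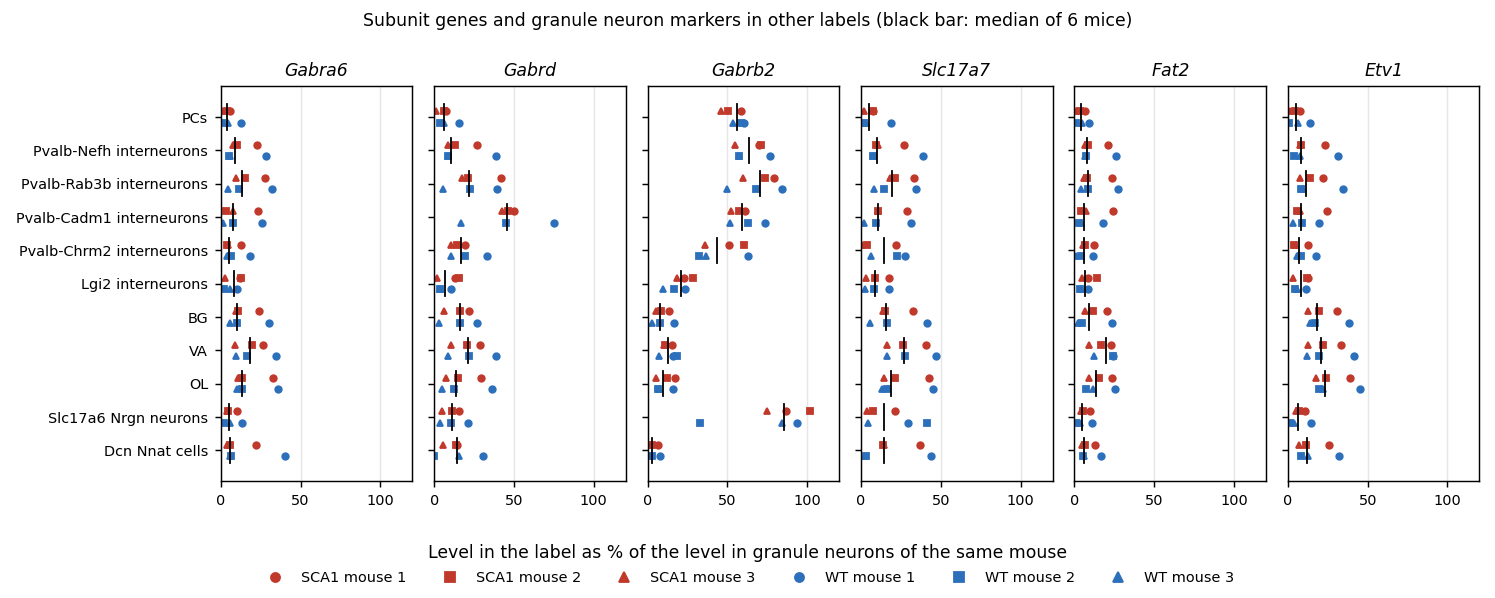
Level in each label as a percentage of the level in granule neurons of the same mouse (x axis), for *Gabra6*, *Gabrd* and *Gabrb2* and for the granule neuron markers *Slc17a7*, *Fat2* and *Etv1*, with 1 point per mouse and a black bar at the median. *Gabra6* lies near the markers drawn, *Gabrd* departs from them in *Pvalb-Cadm1* interneurons (median 45.4%), and *Gabrb2* departs in PCs and most interneurons. The markers *Cbln3* and *Neurod1*, which stood higher than *Gabra6*, are not drawn. *Slc17a6 Sln* neurons, whose *Slc17a7* exceeds that of granule neurons, are not drawn.

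*Gabrb2*, the β2 subunit, was found in most neurons. Granule neurons had 891 ± 284 CPM, *Slc17a6 Nrgn* neurons 698 ± 288, *Pvalb-Rab3b* 586 ± 79.4, *Pvalb-Nefh* 556 ± 116 and *Pvalb-Cadm1* interneurons 516 ± 106 CPM, followed by PCs at 477 ± 124 CPM and *Pvalb-Chrm2* interneurons with 251 to 472 CPM. Neighbours in this order overlapped between mice. *Lgi2* interneurons, at 166 ± 42.7 CPM, lay below all of these without overlap with *Pvalb-Chrm2*, and VA, OL and BG had 108 ± 22.9, 86.5 ± 24.3 and 69.2 ± 25.2 CPM.

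In PCs, *Gabrb2* was the only one of the 7 genes far above its level in glia. It stood at 404, 381 and 560 CPM in SCA1 mice 1, 2 and 3 and at 373, 460 and 687 CPM in WT mice 1, 2 and 3, so that the genotypes overlapped. The mean was 6.90 times that in BG. As a percentage of the level in granule neurons of the same mouse, *Gabrb2* stood at 56.1% (median of 6 mice), against 4.23% and 5.28% for the granule markers *Fat2* and *Etv1*. After thinning, 65.1% of PC nuclei had a UMI of *Gabrb2*. Patterns most like that of *Gabrb2* were those of *Pip5k1b* (r = 0.921), *Syt2* (0.917) and *Fbxo41* (0.914).

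*Gabra3*, the α3 subunit, was a gene of inhibitory interneurons and of *Slc17a6 Nrgn* neurons. The latter had 95.3 ± 17.7 CPM, with 79.4, 91.8 and 125 CPM in SCA1 mice and 80.0, 88.0 and 108 CPM in WT mice 1, 2 and 3, which overlapped. *Lgi2* interneurons had 70.8 ± 17.7, *Pvalb-Cadm1* 58.4 ± 23.8, *Pvalb-Chrm2* 55.2 ± 8.84, *Pvalb-Rab3b* 49.9 ± 16.9 and *Pvalb-Nefh* 39.1 ± 7.67 CPM, each overlapping with the next. Granule neurons, at 3.03 ± 1.74 CPM, PCs at 1.26 ± 1.43, BG at 1.99 ± 2.19 and VA at 1.34 ± 2.35 CPM lay far below. *Gabra3* was thus seen in 26.7% of thinned *Lgi2* nuclei and 0.733% of PCs. In *Dcn Nnat* cells the mean was 29.8 ± 36.1 CPM, of which WT mouse 3 had 101 CPM and the other mice 5.43 to 32.8 CPM. The most similar patterns were those of *Atp6v1h* (r = 0.952), *Grin2d* (0.946) and *9330179D12Rik* (0.936).

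*Gabra2*, *Gabra3* and *Gabrg1* were all found in the sums of *Lgi2* interneurons and of *Slc17a6 Nrgn* neurons. The same held, at lower levels of *Gabra2* and *Gabrg1*, for *Pvalb-Chrm2* interneurons (68.6, 55.2 and 9.36 CPM). Single nuclei with UMIs of all of these genes were not counted. These labels are not cleanly separate. Of *Lgi2* nuclei 47.5%, and of *Pvalb-Chrm2* nuclei 43.3%, lay in clusters made mostly of *Slc17a6 Nrgn* neurons. *Lgi2*, *Grm2* and *Slc6a5*, genes of Golgi cells and other glycinergic neurons, were highest in the *Lgi2* label, at 458, 78.9 and 118 CPM. The astroglial gene *Slc1a3* there was at 0.586% of its BG level, against 23.6% for *Gabra2* and 45.3% for *Gabrg1* (medians of 6 mice). For *Slc17a6 Nrgn* neurons the same values were 0.478%, 26.8% and 35.6%, and 12.7% for *Gabrb1*. A further subunit, *Gabrg3* (γ3), was highest in these 2 labels too, at 684 ± 183 CPM in *Slc17a6 Nrgn* and 675 ± 206 CPM in *Lgi2* nuclei.

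SCA1 was compared with WT in the 10 labels of granule neurons, PCs, interneurons and glia, to see whether the subunit genes change where mutant ATXN1 is expressed and in the cells around PCs. Sums per mouse entered edgeR's quasi-likelihood test, in a model of batch and genotype, with Benjamini-Hochberg adjustment over all genes tested in a label, and a gene was called at an adjusted p of at most 0.05. Of 70 pairs of gene and label, 61 passed the filter on low counts, and 0 were called by edgeR. At an unadjusted p under 0.05 there was 1, *Gabrb1* in granule neurons, where 1.82% of all genes passed that limit. DESeq2 called 0 and limma-trend 0 of the 61, with 2 at an unadjusted p under 0.05 each. For these 2 fits the share of all genes under that limit was not counted, so the number is not read further. Over all genes, edgeR called 0.00547% in granule neurons, 0.00866% in OL and 0% in each of the other 8 labels, so few calls were made anywhere in this design of 3 mice against 3.

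In granule neurons all 7 genes were tested. *Gabrb1* was at 118, 122 and 197 CPM in SCA1 mice 1, 2 and 3 and at 89.5, 73.9 and 117 CPM in WT mice 1, 2 and 3. Every SCA1 mouse was above every WT mouse, but SCA1 mouse 1 only by 1 CPM or so, and the log2 fold change was 0.63 ± 0.26 (SE), with unadjusted p = 0.0479 and adjusted p = 1.00 (edgeR's quasi-likelihood test). The difference of log2(CPM + 1) between SCA1 and WT mice was 0.391 in batch 1 and 0.734 in batch 2. *Gabrd* also had all SCA1 mice, at 207, 214 and 217 CPM, above all WT mice, at 191, 192 and 192 CPM, with a log2 fold change of 0.15 ± 0.17 (SE). Of all genes tested in granule neurons, 1.59% had all SCA1 mice above all WT mice. *Gabra6* (log2 fold change 0.08, 95% interval -0.44 to 0.61) and *Gabrb2* (0.00, -0.73 to 0.74) overlapped between genotypes. Without granule neuron nuclei of 5 or more UMIs of *Slc1a3*, an astroglial glutamate transporter, *Gabrb1* was at 106, 112 and 187 CPM in SCA1 mice and at 80.8, 70.8 and 109 CPM in WT mice, which then overlapped as groups, while each SCA1 mouse stayed above the WT mouse of the same number. With the replicate number as a block, in a label where same-numbered mice deviated together, the log2 fold change of *Gabrb1* from all granule nuclei was 0.62 ± 0.10 (SE), and it was not called (adjusted p = 0.187, edgeR's quasi-likelihood test). In this label, however, WT mouse 2 correlated about as well with SCA1 mouse 3 (r = 0.335) as with SCA1 mouse 2 (r = 0.340), and the pair of mouse 1 is also batch 1. The median log2 fold change of the 7 genes was 0.15, against -0.001 over all genes tested in granule neurons.

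Only 4 of the 7 genes could be tested in PCs, where the transgene is expressed, since *Gabra2*, *Gabra3* and *Gabrg1* did not pass the filter. The log2 fold change of *Gabrb2* was -0.15 (95% interval -0.69 to 0.40), and 0.04 when scaled by library size only, which moved the median of all genes in PCs from 0.02 to 0.20. The values of *Gabra6* and *Gabrd* were -0.61 (-1.84 to 0.61) and -0.64 (-1.72 to 0.43). *Gabrb1* was at 31.7, 65.8 and 21.7 CPM in PCs of SCA1 mice and at 16.5, 14.3 and 98.9 CPM in those of WT mice. The high values were those of SCA1 mouse 2 and WT mouse 3, in each of which a single nucleus held over 3 in 4 of the *Gabrb1* UMIs of the label, 59 of 77 and 73 of 95, with 22 and 5 UMIs of *Slc1a3*. Without neuron nuclei of 5 or more *Slc1a3* UMIs, an alternative chosen after the data were seen, *Gabrb1* in PCs lay between 14.2 and 25.6 CPM in all 6 mice. The median log2 fold change of the 4 genes in PCs was -0.38, against 0.02 over all genes tested. Of these 4, only *Gabrb2*, at -0.15, was far above its level in glia. *Gabra6* and *Gabrd* stood in PCs at 4.04% and 6.17% of their granule neuron level (medians of 6 mice), near the granule neuron markers.

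In BG and VA, where *Gabra2*, *Gabrb1* and *Gabrg1* are highest, none of the 3 was called by edgeR. The log2 fold changes in BG were -0.14 (95% interval -0.71 to 0.43) for *Gabra2*, 0.09 (-0.71 to 0.89) for *Gabrb1* and 0.09 (-0.38 to 0.56) for *Gabrg1*. For VA they were -0.09 (-0.74 to 0.55), -0.02 (-0.83 to 0.80) and 0.08 (-0.43 to 0.60). A change of 2-fold, or 1 on the log2 scale, lay outside each of these 6 intervals. In OL, *Gabrb1* was at 132, 62.5 and 70.8 CPM in SCA1 mice 1, 2 and 3 and at 96.7, 28.8 and 74.5 CPM in WT mice 1, 2 and 3, which overlapped. The log2 fold change there was 0.35 (95% interval -0.29 to 0.98), with differences of log2(CPM + 1) of 0.44 in batch 1 and 0.508 in batch 2.

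Among interneurons, *Gabrb2* in *Lgi2* nuclei was the pair of gene and label in which the genotypes did not overlap, and it was not called. It was at 156, 214 and 225 CPM in SCA1 mice 1, 2 and 3 and at 147, 129 and 127 CPM in WT mice, all SCA1 mice above all WT mice, with a log2 fold change of 0.51 ± 0.25 (SE), unadjusted p = 0.0611 and adjusted p = 1.00 (edgeR's quasi-likelihood test). The difference was 0.0933 in batch 1 and 0.770 in batch 2, and *Lgi2* nuclei numbered 12 in WT mouse 3. Over all genes of this label, 2.88% had all SCA1 mice above all WT mice. The share of thinned *Lgi2* nuclei with a UMI of *Gabrb2* overlapped, at 25.0%, 36.4% and 26.9% in SCA1 mice and 28.8%, 34.6% and 16.7% in WT mice (two-sided exact permutation p = 0.8). Thinned to 1000 UMIs, it did not overlap, at 17.9%, 26.1% and 15.4% in SCA1 mice and 12.1%, 10.3% and 0% in WT mice (exact permutation p = 0.1, the smallest possible), so that this share depended on the depth chosen. *Gabrd* in *Pvalb-Cadm1* interneurons had a log2 fold change of 0.24 (95% interval -0.51 to 0.98), with opposite differences in batch 1 (-0.463) and batch 2 (0.85). In *Pvalb-Nefh* interneurons *Gabrb1* had 0.83 (-0.01 to 1.67), with 119, 84.5 and 26.8 CPM in SCA1 mice and 72.4, 27.8 and 30.5 CPM in WT mice, which overlapped. There, nuclei of 5 or more *Slc1a3* UMIs held 54.7% of the *Gabrb1* UMIs of SCA1 mouse 1 and 72.4% of those of SCA1 mouse 2, and without them the SCA1 and WT means were 35.7 and 37.1 CPM.

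**Figure D4:**
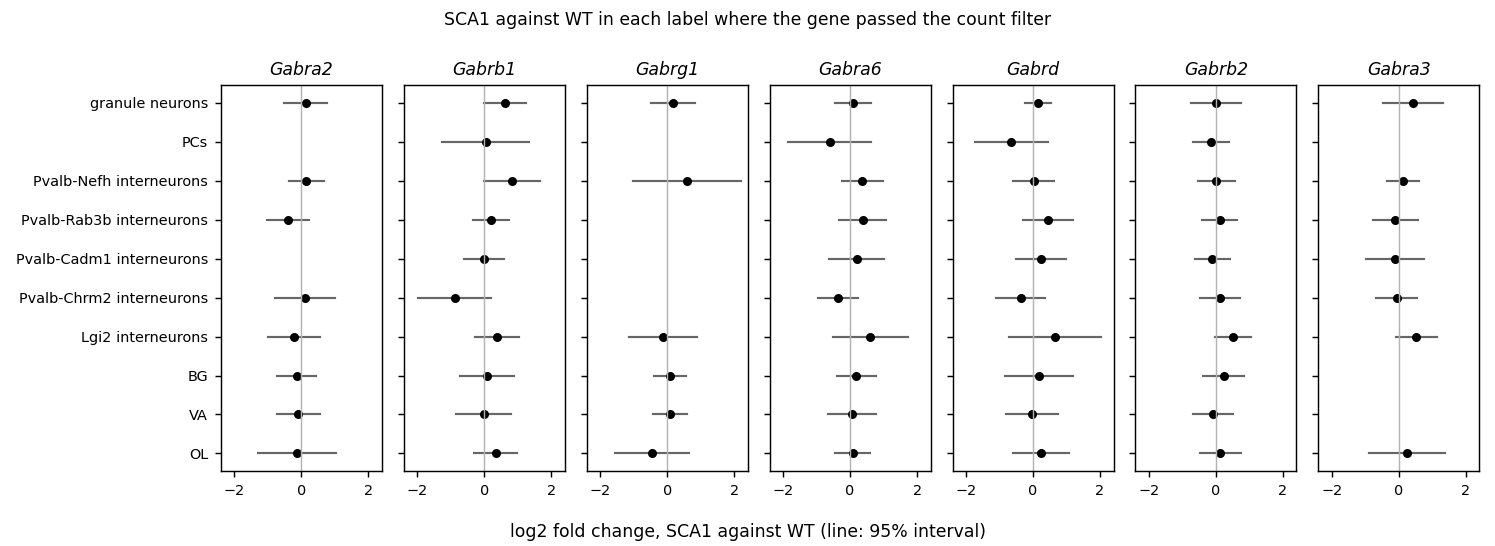
Log2 fold change of each gene, SCA1 against WT (x axis; point: edgeR's estimate, line: its 95% interval), in the 10 labels tested (y axis). Places without a point are genes that did not pass the filter on low counts. Almost every interval spans 0.

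The share of nuclei with a UMI was compared between genotypes for 7 genes in 10 labels, after thinning, which left out most nuclei of WT mouse 2. A two-sided exact permutation test over mice cannot go below p = 0.1 with 3 mice against 3. Where genotype makes no difference, up to 0.1 of comparisons reach this value by the definition of the test. The share over all genes was not counted. Of the 70 comparisons, 3 reached the value, which is not above that rate, with an adjusted p of 1.00. One was *Gabrb1* in granule neurons, at 20.1%, 18.4% and 19.8% of nuclei in SCA1 mice and 17.4%, 12.0% and 12.8% in WT mice 1, 2 and 3. The others were *Gabra2* in *Pvalb-Nefh* interneurons, at 10.4% ± 1.23 in SCA1 and 7.19% ± 0.907 in WT mice (SD, n = 3), and *Gabrg1* in *Lgi2* interneurons, at 6.86% ± 2.02 and 13.4% ± 2.84. Without thinning, none of these 3 reached it (exact permutation p = 0.4, 0.3 and 0.6).

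The difference between SCA1 and WT in a label was also set against that in granule neurons of the same mice, as an interaction in 1 edgeR model with mouse as a term. The count filter here took both labels together, so that a gene with few UMIs in the label could pass on those of granule neurons. Of the 63 pairs of gene and label, 1 was called, *Gabrb1* in *Pvalb-Chrm2* interneurons (log2 difference -1.32 ± 0.22, SE, adjusted p = 5.93e-06, edgeR's quasi-likelihood test), where 0.443% of all genes were called. *Gabrb1* in this label was at 119, 65.7 and 125 CPM in SCA1 mice and at 175, 380 and 63.2 CPM in WT mice 1, 2 and 3. The genotypes overlapped, and the value of WT mouse 2 was far above the rest. Of its 71 *Gabrb1* UMIs in the label, 56 lay in a single nucleus, which also held 32 *Slc1a3* UMIs. Without WT mouse 2 the log2 difference was -0.47 (adjusted p = 1.00), and without nuclei of 5 or more *Slc1a3* UMIs it was -0.75 (adjusted p = 0.273). DESeq2 gave -1.31 (adjusted p = 1.00). Over all genes of the label, calls went from 76 of 17150 to 22 of 17404 without WT mouse 2, 56 of 17054 without those nuclei and 3 of 17150 with DESeq2. None of the subunit genes was called by edgeR in the other 7 labels besides PCs, where calls took 0.0121% of all genes in *Pvalb-Nefh*, 0.103% in *Pvalb-Rab3b*, 0.261% in *Pvalb-Cadm1* and 0.113% in *Lgi2* interneurons, 0% in VA, 0.00596% in OL and 0.0117% in BG. At an unadjusted p under 0.05 there were 4 further pairs, *Gabrd* in PCs (-0.93) and *Gabrb1* in *Pvalb-Cadm1* interneurons (-0.57), BG (-0.48) and VA (-0.58). All of them subtract the difference in the same granule neurons, where *Gabrb1* was higher in SCA1 mice. Within BG and VA themselves, the genotypes overlapped for *Gabrb1*, which does not show that it was unchanged there. A change of *Gabrb1* in those labels cannot be told apart in these pairs from the difference in granule neurons. Over all genes, 1198 of 16707 passed that limit in PCs, 826 of 16499 in *Pvalb-Cadm1* interneurons, 410 of 17102 in BG and 437 of 16856 in VA. In PCs, *Gabra2*, *Gabra3* and *Gabrg1*, with 64, 21 and 13 UMIs, passed the filter only together with granule neurons, and were not called. Of the other 4 subunit genes in PCs, where 0.377% of all genes were called, 0 were called by edgeR. Without SCA1 mouse 2, when calls over all genes also rose from 63 of 16707 to 301 of 16486, there were 3, *Gabra6* (-1.28, adjusted p = 0.00123), *Gabrd* (-1.29, adjusted p = 0.00861) and *Gabrb1* (-0.94, adjusted p = 0.0186, edgeR's quasi-likelihood test). In PCs of SCA1 mouse 2, *Gabra6* was at 31.6 CPM, against 35.1 and 7.03 CPM in SCA1 mice 1 and 3 and 70.5, 6.49 and 37.5 CPM in WT mice.

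**Figure D5:**
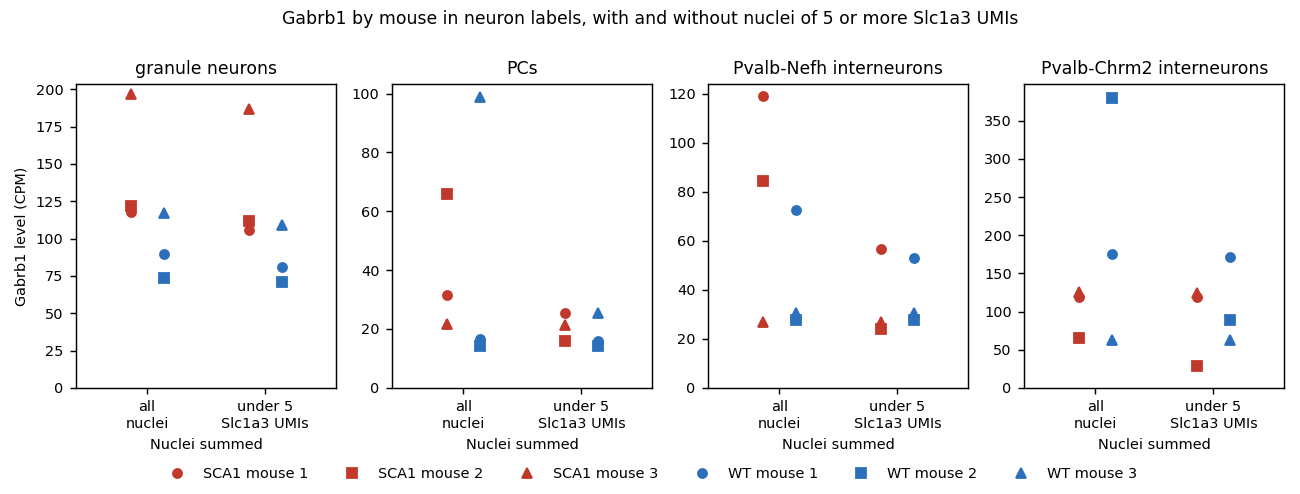
*Gabrb1* level (y axis, CPM) by mouse in 4 neuron labels, from all nuclei and from nuclei of under 5 *Slc1a3* UMIs, red for SCA1 and blue for WT. The high points of PCs (65.8 and 98.9 CPM), *Pvalb-Nefh* (119 and 84.5 CPM) and *Pvalb-Chrm2* interneurons (380 CPM) come down once these nuclei are left out, and those of granule neurons hardly move.

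The other genes of the pathway were read from 3 lists. None of the 12 other GABA-A and GABA-rho subunit genes was called by edgeR (50 tests, 0 at an unadjusted p under 0.05). The log2 fold change of *Gabra4* in PCs was 0.17 (95% interval -0.69 to 1.03). *Gabrr2* (ρ2) was highest in OL, at 36.3 ± 11.2 CPM. Of 26 genes of receptor assembly, clustering and trafficking, 0 were called over 239 tests by edgeR and 2 had an unadjusted p under 0.05. Of these, 1 was in PCs and 1 in *Pvalb-Chrm2* interneurons, where 6.85% and 2.31% of all genes passed that limit. Outer values in PCs included those of *Plcl1*, a binding partner of the receptor (-1.99), and *Nlgn2*, the adhesion protein of inhibitory synapses (-0.59), against *Rdx*, which anchors α5 receptors (0.30), and in granule neurons they were those of *Nlgn2* (-0.23), *Shisa7* (-0.23), *Mdga1* (0.25) and *Insyn2a* (0.42).

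Among 13 genes of GABA supply, chloride transport and the GABA-B receptor, 0 were called over 120 tests by edgeR and 7 had an unadjusted p under 0.05, of which 4 were in PCs, where 12 of the 13 were tested and 6.85% of all genes passed that limit. The others were in granule neurons, BG and OL, 1 in each, where 1.82%, 1.81% and 0.849% of all genes passed it. The nearest to a call was *Kctd12*, an auxiliary subunit of GABA-B receptors. In PCs it was at 10.3, 25.6 and 23.4 CPM in SCA1 mice 1, 2 and 3 and at 47.1, 63.6 and 83.2 CPM in WT mice 1, 2 and 3. No SCA1 mouse reached the lowest WT value. The fitted log2 difference was -1.79 ± 0.26 (SE) at an adjusted p of 0.0536 (edgeR's quasi-likelihood test), so that it narrowly missed the threshold. DESeq2, which called 65 genes in PCs, called it (adjusted p = 7.19e-05), and over all alternatives the adjusted p ran from 2.55e-06 to 0.567. *Gabbr1*, a subunit of the GABA-B receptor itself, was likewise lower in all SCA1 mice (210 to 237 CPM) than in all WT mice (293 to 404 CPM). Here the fitted log2 difference was -0.60 ± 0.21 (SE) and edgeR's adjusted p 0.502. Over all genes tested in PCs, 5.11% had all SCA1 mice below all WT mice. *Gabbr2* (-0.84) and *Kctd8* (-1.36) overlapped between genotypes, though *Gabbr2* was called with the replicate block in place of batch. That block called 184 of 10517 genes in PCs, against 0 in the main fit. In PCs, WT mouse 2 correlated less with SCA1 mouse 2 (r = 0.056) than with SCA1 mouse 3 (r = 0.097). The largest positive values were those of the GABA-synthesizing enzyme *Gad2* (0.36) and the vesicular transporter *Slc32a1* (0.39). *Gad2*, which was not called, had all SCA1 mice (113 to 159 CPM) above all WT mice (89.6 to 112 CPM), as did 4.96% of all genes. In granule neurons the outer values of this list included those of *Kctd12* (-0.72), *Kctd16* (-0.38) and *Slc6a11* (0.43).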

How the data were processed

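The authors deposited, for each mouse, whole-number UMI counts per gene and nucleus, which were not normalized, and a second table of another kind, the deposited Seurat cluster number and SingleR label of each nucleus. Per the study's methods, reads were aligned with Cell Ranger 5.0.1 to mm10 with human *ATXN1* added, reads on introns were counted, and debris was removed with DIEM (minimum 1000 UMIs, 3000 in the first run), so that the minimum differs between runs. The labels also list Cell Ranger 4.0.0 and 6.0.1. Batch was inferred from library numbers, with mouse 1 of each genotype as batch 1.

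Counts were summed per mouse and label and fitted with edgeR 4.0.16 (TMM, filterByExpr with minimum count 10 and minimum total 15, terms batch and genotype). Levels are CPM scaled by TMM factors computed within a label. The study's own test took nuclei as replicates and was not used. Alternatives used DESeq2 1.42.0, limma 3.58.1 (prior count 2), other scalings and filters, other sets of nuclei, and each mouse left out. Fits were tested on simulated counts. No doublet caller was run. Same-numbered SCA1 and WT mice deviated together, with correlations over 0.1 for all 3 pairs in 6 of the 10 labels, though not in PCs, BG, OL and *Pvalb-Chrm2* interneurons, and no source says that the numbers mark a shared litter or day. Members and gene lists were chosen with earlier results of these data known. All 7 genes are described, other subunit genes where they neighbour one, and listed genes where called or among the 2 largest and 2 smallest log2 fold changes in PCs or granule neurons. *Gabrr2*, *Gabrg3*, *Gabbr1* and *Gabbr2* were named after their values were seen. Some genes that these rules would name are not reported here. Labels of under 10 nuclei in a mouse were not analysed here.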

Additional observations from a re-analysis of the deposited data

Results flagged for a closer look

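*Gabrb1* in *Pvalb-Chrm2* interneurons was called against *Gabrb1* in granule neurons, with a log2 difference of -1.32 ± 0.22 (SE) and an adjusted p of 5.93e-06 (edgeR's interaction test, Benjamini-Hochberg over 17150 genes). Within the label, the difference of log2(CPM + 1) between SCA1 and WT mice was -0.549 in batch 1 and -0.772 in batch 2. In batch 2 it rested on WT mouse 2, at 380 CPM. WT mouse 3, at 63.2 CPM, lay below SCA1 mice 2 and 3, at 65.7 and 125 CPM. The call was lost without WT mouse 2, in which 78.9% of the *Gabrb1* UMIs of the label lay in a single nucleus. Without that mouse the value was -0.47 and the adjusted p 1.00, and over the other 5 mice left out in turn it lay between -1.97 and -1.19. DESeq2 did not make the call, and it was also lost without nuclei of 5 or more *Slc1a3* UMIs.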

How the results depend on the processing

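With 3 mice a genotype, few genes were called in any label, and a missing call does not show that a gene did not change, at 2-fold or less in particular. Over all genes and the 10 labels, calls numbered 2, but 84 with DESeq2 (65 in PCs), 10 with RLE factors, 332 without a filter on low counts (223 in PCs), 204 with the replicate block in place of batch (184 in PCs), 11 without neuron nuclei of 5 or more *Slc1a3* UMIs, 3 with library size only, 1 with limma-trend, 0 without the batch term and 2 to 20 with a mouse left out. None of these settings, the replicate block included, called a subunit gene for SCA1 against WT within a label. The replicate block had 4 of 61 pairs of subunit gene and label at an unadjusted p under 0.05. It also raised the calls over all genes to 204, and the share of all genes under the unadjusted limit was not counted. In PCs the replicate block called *Kctd12* (adjusted p = 0.00561) and *Gabbr2* (adjusted p = 0.0072). Labels matching the cluster's most frequent label left too few nuclei in *Pvalb-Rab3b*, *Pvalb-Chrm2* and *Lgi2* interneurons, which were not refitted. Only 0%, 14.4% and 47.9% of their nuclei matched. This alternative is the nearest here to the study's own rule, which asked for the same cluster as well as the same SingleR label. The alternative on *Slc1a3* was chosen after seeing the data.

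Against granule neurons, the 1 call in *Pvalb-Chrm2* interneurons became 0 with DESeq2 (over all genes 3, from 76) and 0 without nuclei of 5 or more *Slc1a3* UMIs (56 over all genes), and 0 to 1 with a mouse left out. In PCs, leaving out a mouse gave 0 to 3 calls, while those over all genes, 63 otherwise, ran from 14 to 301. *Gabrb2* in granule neurons, at 0.00, turned to -0.01 with DESeq2, -0.01 with RLE factors, -0.02 without the batch term and -0.03 in nuclei of at least 3000 UMIs, and ranged from -0.19 to 0.26 with a mouse left out. *Gabrb2* in PCs, at -0.15, turned to 0.04 with library size only and ranged from -0.28 to 0.07. Of the 61 pairs of subunit gene and label within labels, 42 kept the sign of their log2 fold change without SCA1 mouse 2. With another mouse left out, 44 (WT mouse 3) to 55 (mouse 1 of either genotype) kept it. The largest move was 3.8 on the log2 scale, without WT mouse 1. Mean levels moved by less than 1 SD in all 66 alternatives. Shares of nuclei moved with depth. Without thinning they were 79.6% for *Gabra2* in VA, 64.3% for *Gabra3* in *Slc17a6 Nrgn* neurons, 92.7% for *Gabra6* and 61.4% for *Gabrd* in granule neurons and 37.9% for *Gabrg1* in BG, and 1 comparison of genotypes, *Gabrb1* in VA and none of the 3 named above, reached the smallest exact p. Thinned to 1000 UMIs, these shares were 42.2%, 6.76%, 50.9%, 18.1% and 9.29%, with 94.4% for *Gabrb1* in BG and 53.6% for *Gabrb2* in granule neurons. At that depth 4 comparisons reached the smallest exact p, *Gabrb1* in granule neurons, *Gabrg1* and *Gabrb2* in *Lgi2* and *Gabrb2* in *Pvalb-Chrm2* interneurons. Neither count is above the share of 0.1 that this p allows among 70 comparisons.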
